A study of Sorghum bicolor with 12 samples.

Results

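Assembled loci that name no annotated gene were followed in middle stem internodes of the sweet sorghum (Sorghum bicolor) hybrid CSH22SS. The members are all loci with an assembly number (written MSTRG and a number) whose gene name field was a dash, NA or empty. There were 1773 of them among 34458 loci in the developmental set (5.15%) and 1326 among 34718 loci in the water-limiting set (3.82%). Plants stood in an open field, and each of the 6 groups had 2 libraries of total RNA. The Ds1, Ds2 and Ds3 groups carry the stage label booting plus that code, and the column header over them names water-limiting conditions. The labels do not say how the Ds groups were treated, how long, or whether their numbers are times. The 3 other groups carry no such code. They are booting, when the panicle is still enclosed by the flag leaf, the milky stage, when the grain fills with milky sap, and physiological maturity. The authors deposited 1 FPKM value per group (fragment numbers divided by transcript length and library size), so values are given without a replicate error and no test could be run. Differences are described by size, and read depth is unknown. Gene IDs in the table are not paired with names, so the labelled tissue was not checked against marker genes, and neighbouring genes are given by ID with no role.

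A transcript assembler joins overlapping read alignments into loci and numbers them. Where a locus overlaps an annotated gene it inherits that gene's name, and where it does not it keeps its number alone. In plants such loci are known to include long noncoding RNAs, transcripts of transposable elements, antisense transcripts, pieces of the untranslated ends of nearby genes and protein-coding genes absent from the annotation. The library kit used here works on total RNA and removes ribosomal RNA rather than selecting poly(A) tails, so RNAs without a tail can also appear. Which of these classes any locus below belongs to was not tested, because the table gives no sequence, strand or position. Reads of near-identical copies and of overlapping or antisense transcripts cannot be told apart in these values.

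Locus numbers largely followed the order of genes along the genome. Among loci naming a gene, 99.9% of neighbouring numbers named genes of the same chromosome in both sets. Gene IDs ascended from one such number to the next in 85.8% of cases in the developmental set and 82.3% in the water-limiting set. The nearest lower and higher number that names a gene therefore gives an approximate place. By this measure 1672 of the 1773 developmental members and 1212 of the 1326 water-limiting members lay between genes of 1 chromosome. Another 95 and 108 lay between genes whose IDs carry K in place of a chromosome number, which marks sequence outside the numbered sorghum chromosomes. In each set 6 lay between genes of different places. Most members stood alone between named loci, 1214 (68.5%) in the developmental set and 856 (64.6%) in the water-limiting set. Runs of at least 4 consecutive unnamed numbers held 145 and 153 members, and the longest runs held 17 and 19.

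Most members were low. In the developmental set 324 members (18.3%) reached 10 FPKM in at least 1 group, against 47.6% of assembled loci naming a gene, and 671 stayed under 1 FPKM in every group. In the water-limiting set 293 members (22.1%) reached 10 FPKM, against 51.6% of assembled loci naming a gene, and 229 stayed under 1 FPKM throughout. The median member had 1.29, 0.965 and 1.09 FPKM at booting, milky and maturity, while the median assembled locus naming a gene had 7.16, 6.73 and 6.64 FPKM. In the water-limiting set the median member had 1.41 FPKM in Ds1, 1.72 in Ds2, 1.73 in Ds3 and 1.21 in booting, and loci naming a gene had 6.13, 6.11, 6.10 and 6.72 FPKM. On the deposited scale, medians of members were thus higher in the 3 Ds groups than in booting, while those of loci naming a gene were lower. This order depends on the scale, because the Ds columns have larger totals, as given below. The totals of Ds1 and Ds2 exceeded that of booting by a larger factor than their members' medians did. For Ds2 the factors were nearly equal, and for Ds3 that of the total was the smaller.

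In the water-limiting set the summed abundance of the members differed far more between groups than their medians did. In the developmental set their shares of all FPKM were 2.54% at booting, 1.71% at milky and 2.16% at maturity. The water-limiting shares were 9.41% in Ds1, 7.40% in Ds2 and 6.71% in Ds3, against 1.75% in booting. The 6 members with the highest mean FPKM over the Ds groups and booting were then taken, a ranking that favours loci high in the Ds groups. They made up 76.8% of the members' FPKM in Ds1, 71.8% in Ds2 and 68.4% in Ds3, against 2.57% in booting. Without these 6 the shares were 2.18%, 2.09% and 2.12% in Ds1, Ds2 and Ds3, against 1.71% in booting. The fewest members that together held 50% of the members' FPKM were 3, 3 and 4 loci in Ds1, Ds2 and Ds3, against 45 in booting. Members with at least 1000 FPKM numbered 9 in Ds1, 6 in Ds2 and 6 in Ds3, against 1 in booting. Loci of either kind at that level numbered 69, 45 and 44 in Ds1, Ds2 and Ds3, against 24 in booting.

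**Figure D1:**
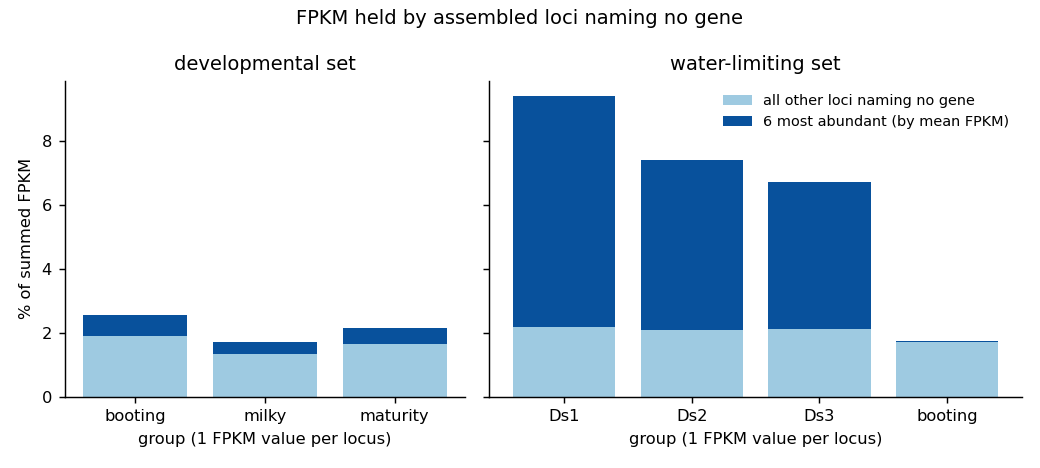
Percent of summed FPKM held by loci naming no gene in each group, with the 6 most abundant members of each set in dark blue and all others in light blue. In Ds1, Ds2 and Ds3 the dark part takes most of a bar that reaches 9.41%, 7.40% and 6.71%, while the light part lies between 1.35% and 2.18% in all groups.

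The most abundant member was MSTRG.2860, between Sobic.001G407100 and Sobic.001G407200 on chromosome 1. It had 27801 FPKM in Ds1, 17337 in Ds2 and 9838 in Ds3, against 76.0 in booting. Its 2 flanking loci stayed at 10.1 FPKM or less in all 4 groups. MSTRG.7436 on chromosome 3 had 12932, 5452 and 3709 FPKM in Ds1, Ds2 and Ds3, against 10.9 in booting. MSTRG.12254 on chromosome 4 had 7449.8, 3708 and 2740.0 FPKM in Ds1, Ds2 and Ds3, against 10.3 in booting. All 3 loci were highest in Ds1 and lowest among the Ds groups in Ds3, with log2 differences of Ds3 from Ds1 of -1.50, -1.80 and -1.44, which stay within the size rule given below.

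A second kind of very abundant locus showed no such order among the Ds groups. MSTRG.22466, MSTRG.22467 and MSTRG.22468 are neighbours between Sobic.K031500 and Sobic.K031900, outside the numbered chromosomes. MSTRG.22466 had 6968, 5049 and 6047 FPKM in Ds1, Ds2 and Ds3, against 57.4 in booting. MSTRG.22467 had 4187, 1926 and 2479.9 FPKM in Ds1, Ds2 and Ds3, against 29.1 in booting. MSTRG.22468 had 4628, 2769 and 4918 FPKM in Ds1, Ds2 and Ds3, against 31.4 in booting. All 3 were lowest in Ds2 among the Ds groups, and with MSTRG.2860, MSTRG.7436 and MSTRG.12254 they are the 6 members counted in the shares.

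The 10 most abundant members of the water-limiting set were ranked by a mean over all its groups, most of which are Ds groups. That ranking favours loci high in the Ds groups. Of these 10, 9 were higher in every Ds group than in booting by a log2 difference of at least 6.001. The exception was MSTRG.18724 on chromosome 9, with 3311 FPKM in Ds1, 426 in Ds2 and 376 in Ds3, against 1084 in booting. It stood above booting in Ds1 and below it in Ds2 and Ds3. In the developmental set MSTRG.19811 lies between the same named genes, Sobic.009G012700 and Sobic.009G013800, and read 1113 FPKM in booting, 519 in milky and 695 in maturity. MSTRG.10222, MSTRG.6624 and MSTRG.454 were low in booting, at 4.30, 0.659 and 2.57 FPKM. MSTRG.6624 had 1775 FPKM in Ds1, 376 in Ds2 and 239 in Ds3, MSTRG.10222 had 1372, 739.5 and 613, and MSTRG.454 had 666, 546 and 427.

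**Figure D2:**
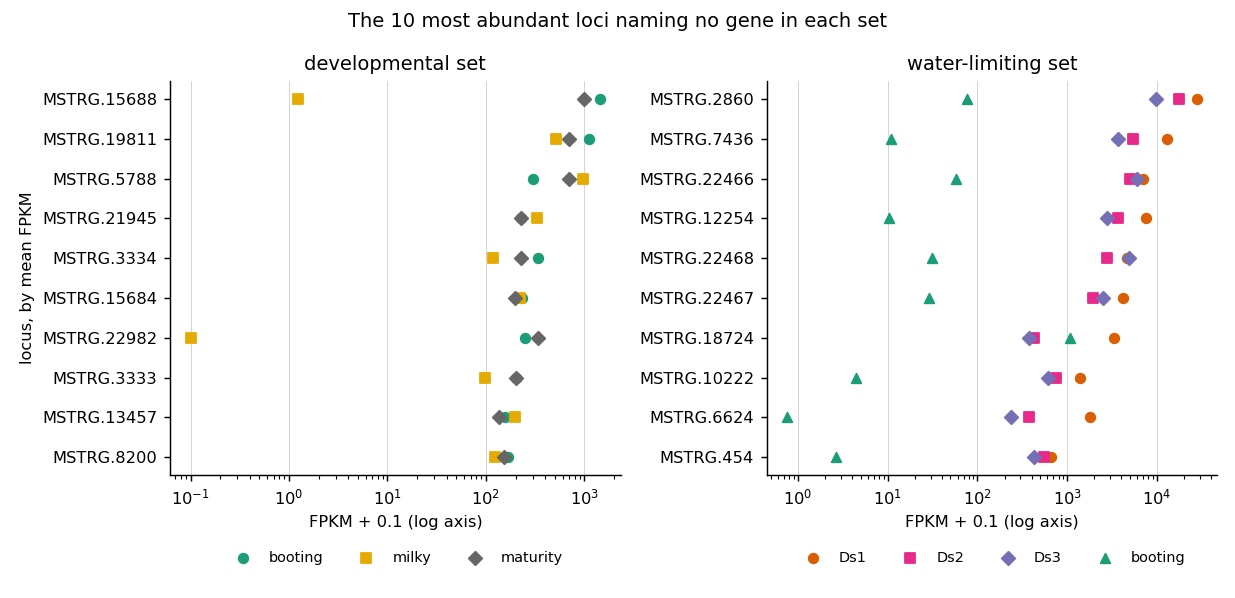
FPKM (plus 0.1, log axis) of the 10 members with the highest mean in each set, 1 marker per group. On the right the booting triangle lies far left of the Ds markers for every locus but MSTRG.18724, and on the left the milky square stands apart for MSTRG.15688 (1.15 FPKM) and MSTRG.22982 (listed at 0).

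For counts, a locus was called different between 2 groups when FPKM + 1 differed at least 4-fold (a log2 difference of 2) and its larger value reached 10 FPKM. In Ds1 against booting 87 of 259 members with 10 FPKM in either group were called higher and 19 lower, 40.9% together, against 14.5% of all loci at that level. In Ds2 against booting 85 were higher and 13 lower of 257, 38.1% against 15.8% of all loci. In Ds3 against booting 89 were higher and 14 lower of 264, 39.0% against 14.2% of all loci. The shares called higher were 33.6%, 33.1% and 33.7% of members in Ds1, Ds2 and Ds3, against 9.58%, 8.93% and 7.97% of all loci. The shares called lower were 7.34%, 5.06% and 5.30% of members, against 4.94%, 6.89% and 6.22% of all loci. These 3 comparisons share the booting column. In bulk tissue a change in the number of cells of a type and a change in RNA per cell cannot be told apart.

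The split into higher and lower depends on the scale. Totals of deposited FPKM were 885374 in Ds1, 682190 in Ds2 and 647608 in Ds3, against 477138 in booting. When the columns were rescaled to equal sums, the members split into 86 higher and 137 lower of 402 in Ds1, 99 and 87 of 426 in Ds2, and 104 and 63 of 433 in Ds3. Together these are 55.5%, 43.7% and 38.6% of the members, against 23.4%, 20.3% and 18.0% of all loci on the same scale. The same rescaling moved the median log2 difference of all loci at 10 FPKM to -0.92 in Ds1, -0.64 in Ds2 and -0.52 in Ds3, from deposited medians of -0.05, -0.14 and -0.08. The members' own medians on equal sums were -1.36 in Ds1, -0.91 in Ds2 and -0.74 in Ds3. With scaling by the median of ratios, the counts stayed within 1.5 times those given above.

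**Figure D3:**
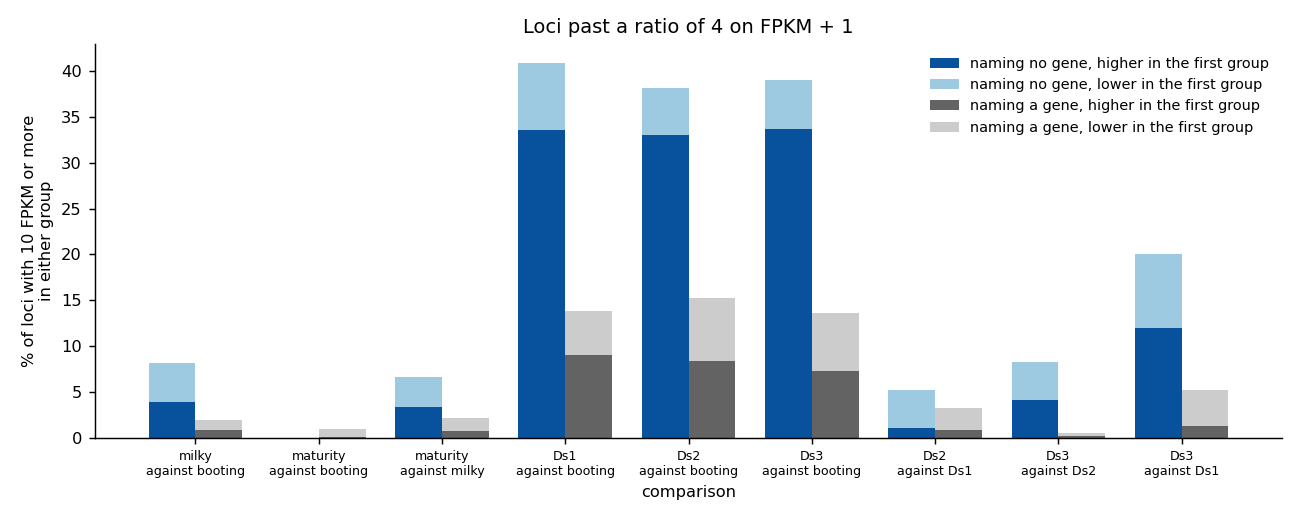
Percent of loci with 10 FPKM in either group that passed the ratio of 4, stacked as higher (dark) and lower (light) in the first group of each comparison, for loci naming no gene (blue, left) and naming a gene (grey, right). The blue bars of the 3 Ds comparisons with booting reach 40.9%, 38.1% and 39.0%, and that of maturity against booting is at 0.

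Against booting, the members' differences lay in 2 bodies of values. In Ds1, 144 of 259 members had a lower value than in booting and 87 were at least 4-fold higher, while 10 (3.86%) lay between 2-fold and 4-fold higher. Among loci naming a gene 10.6% lay in that interval. The median log2 difference of the members was -0.50, against -0.05 for all loci, and the upper quartile was 3.56. Ds2 and Ds3 had the same shape, with medians of -0.40 and -0.31, upper quartiles of 3.66 and 3.84, and 11 and 8 members in the interval. The log2(FPKM + 1) scale understates changes of low loci.

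Which body a member belonged to went with its level in booting, in part because of the 10 FPKM entry rule. Of the members counted in Ds1, 91 reached 10 FPKM in Ds1 alone and 100 in booting alone. A locus that enters through 1 group is higher in that group, so the direction of these was set by the entry rule. Among the 68 members at 10 FPKM in both, 10 passed the rule (14.7%), against 4.55% of all loci at 10 FPKM in both. Of the 168 members with at least 10 FPKM in booting, 9 were called higher in Ds1, 8 in Ds2 and 8 in Ds3, and 19, 13 and 14 were called lower. The shares higher were 5.36%, 4.76% and 4.76% in Ds1, Ds2 and Ds3, against 2.63%, 2.07% and 1.88% of all loci at 10 FPKM in booting. The shares lower were 11.3%, 7.74% and 8.33%, against 5.89%, 8.23% and 7.39% of those loci. The median log2 differences of these 168 were -1.09 in Ds1, -1.01 in Ds2 and -1.01 in Ds3, where loci naming a gene with 10 FPKM in booting had -0.27, -0.35 and -0.29. With the columns rescaled to equal sums, 9, 8 and 8 of the 168 were higher and 81, 55 and 35 lower. The shares higher were then 5.36%, 4.76% and 4.76%, against 1.31%, 1.23% and 1.19% of all loci at 10 FPKM in booting. The shares lower were 48.2%, 32.7% and 20.8%, against 19.4%, 15.3% and 12.8% of those loci. On that scale the medians of the 168 were -1.96, -1.53 and -1.47, against -1.14, -0.86 and -0.73 for loci naming a gene. The other 78 of the 87 members called higher in Ds1 had less than 10 FPKM in booting, so they could not have been called lower.

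The share called grew with the higher value of the pair. That value is part of the ratio, and a larger one leaves more room to pass the rule. How much of the rise follows from this grouping was not tested. Of the members whose higher value lay between 10 and 30 FPKM, 26.2% passed the rule in Ds1 against booting, and 55.8% passed between 30 and 100 FPKM. Above 100 FPKM 34 of 43 passed (79.1%), 33 of them higher. Among loci naming a gene the shares were 11.03%, 13.3% and 27.9%. In Ds3 against booting 35 of the 44 members above 100 FPKM passed, 34 of them higher, against 27.7% of loci naming a gene.

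**Figure D4:**
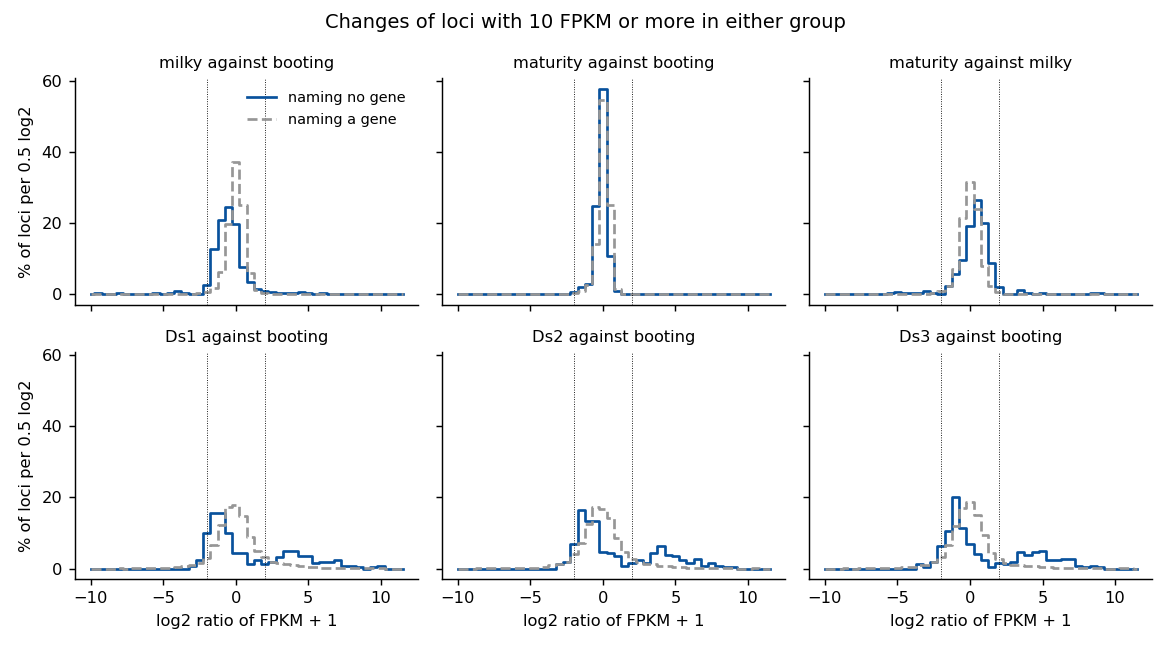
Distribution of the log2 ratio of FPKM + 1 for loci with 10 FPKM in either group, as percent of loci per 0.5 log2, for loci naming no gene (solid blue) and naming a gene (dashed grey), with dotted lines at log2 of 2 in either direction. In the Ds panels the blue line has a peak below 0 and a second, lower body above the right dotted line, and in milky against booting its peak lies left of the grey one (medians -0.53 and 0.03).

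Large ratios with moderate levels were found in Ds3 as well. MSTRG.3939 on chromosome 1 had 169.7 FPKM in Ds1, 262 in Ds2 and 591 in Ds3, against 0.637 in booting. MSTRG.8024 on chromosome 3 had 117 FPKM in Ds1, 218 in Ds2 and 564 in Ds3, against 1.90 in booting. Both were highest in Ds3, the reverse of the order of MSTRG.2860. MSTRG.11393 on chromosome 4 followed the order of MSTRG.2860, with 356 FPKM in Ds1, 267 in Ds2 and 161 in Ds3, against 0.423 in booting.

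The members called lower changed by smaller ratios. MSTRG.21340 on chromosome 10 had 9.96 FPKM in Ds1, 11.7 in Ds2 and 10.8 in Ds3, against 67.9 in booting. MSTRG.10939 on chromosome 4 had 3.99, 2.70 and 2.56 FPKM in Ds1, Ds2 and Ds3, against 33.3 in booting. MSTRG.6109 on chromosome 2 had 7.42, 6.41 and 6.41 FPKM in Ds1, Ds2 and Ds3, against 37.9 in booting. These loci held nearly the same low level in all 3 Ds groups, and MSTRG.14732 and MSTRG.16307 were also low in all 3, at 0.384 to 1.76 FPKM against 12.5 and 11.1 in booting. MSTRG.17903 on chromosome 8 had 9.37, 4.05 and 3.55 FPKM in Ds1, Ds2 and Ds3, against 43.7 in booting. Against booting, the lowest log2 difference of any member was -3.61, for MSTRG.13000 in Ds3, and the highest was 10.08, for MSTRG.7436 in Ds1.

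The low values of MSTRG.13000 rest on a booting level that the booting column of the other set did not share. Both booting columns carry the code of the same 2 booting libraries. Setting them side by side therefore compares 2 processings, not separate samples. It had 1.36 FPKM in Ds1, 4.71 in Ds2 and 0.446 in Ds3, against 16.6 in booting. Between the same genes, Sobic.005G068700 and Sobic.005G068800, the developmental set has MSTRG.13718, which read 0.573 FPKM in booting. In all, 184 members that stood alone lay between the same 2 named genes in both sets, and 38 of them had at least 10 FPKM in booting in either set. For these 38 the booting value of the water-limiting set was a median of 0.865 times that of the developmental set on FPKM + 1, with an SD of 0.89 in log2 and quartiles of -0.37 and -0.13. MSTRG.13000 and MSTRG.13317 were the 2 loci at least 4-fold apart. MSTRG.13317, chosen here after its values were seen, had 28.3 FPKM in booting, and its partner MSTRG.14059 had 1.79. MSTRG.17903 was close to its partner MSTRG.18943, at 43.7 and 50.0 FPKM in booting.

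Flanking loci mostly did not pass the rule together with the members. Of the 70 members between genes of 1 chromosome that were higher in Ds1 than in booting, 59 had a flanking locus with at least 10 FPKM in either group. A flank was itself called higher for 10 of the 70 (14.3%) and lower for 6, and for members not past the rule a flank was called higher for 8.50%. In Ds2 a flank was higher for 16 of 68 (23.5%) and lower for 8, against 9.43% higher for members not past the rule. In Ds3 a flank was higher for 11 of 61 (18.0%) and lower for 9, against 6.83% higher for members not past the rule. Members called lower had a higher flank for 1 of 19 in Ds1, 1 of 13 in Ds2 and 3 of 14 (21.4%) in Ds3. MSTRG.8024 is 1 of the members with a higher flank. Its neighbour Sobic.003G172850 had 36.0, 60.2 and 55.9 FPKM in Ds1, Ds2 and Ds3, against 3.17 in booting. The gene on its other side, Sobic.003G172900, had 107, 124 and 108 FPKM in Ds1, Ds2 and Ds3, against 4.64 in booting. MSTRG.11393 lies next to the locus of Sobic.004G198701, which had 8824, 6761 and 5892 FPKM in Ds1, Ds2 and Ds3, against 66.9 in booting. Whether such a member is an extension of the neighbouring transcript was not tested. MSTRG.6624 went the other way from its neighbour Sobic.002G407000, which had 3.48, 4.26 and 5.34 FPKM in Ds1, Ds2 and Ds3, against 30.01 in booting.

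Members outside the numbered chromosomes mostly reached 10 FPKM through a Ds group. Those with 10 FPKM in either group numbered 17 in Ds1 against booting, 16 in Ds2 and 27 in Ds3, and all were called higher, with median log2 differences of 4.15, 4.59 and 5.04. Of these, 14, 13 and 24 had less than 10 FPKM in booting and so could not have been called lower. The other 3, MSTRG.22466, MSTRG.22467 and MSTRG.22468, had at least 10 FPKM in every group and were higher in all 3 comparisons. With the columns rescaled to equal sums, 19 of 20 were higher and 1 lower in Ds1. On that scale 22 of 23 were higher in Ds2 and 35 of 36 in Ds3. Of all loci, 23.4%, 20.3% and 18.0% were called on that scale in Ds1, Ds2 and Ds3. How many of the rescaled members entered through a Ds group alone was not counted. Loci naming a gene from the same sequences were counted on the deposited scale. Of these, 12 of 20 were called higher in Ds1, 10 of 19 in Ds2 and 12 of 21 in Ds3. Called lower were 0, 2 and 1 of them. Through the Ds group alone 8, 7 and 9 of these loci entered. Of the 12 such loci with 10 FPKM in booting, 5 were higher in each Ds group. In Ds1, Ds2 and Ds3, 0, 2 and 1 of the 12 were lower. The members' summed FPKM there was 16770.4 in Ds1, 10522.7 in Ds2 and 15094.8 in Ds3, against 143 in booting. Most of it came from the run of locus numbers 22464 to 22468, which holds the 3 abundant loci named above and summed to 15785, 9747 and 13448 FPKM in Ds1, Ds2 and Ds3, against 118 in booting. The other 2 loci of that run, MSTRG.22464 and MSTRG.22465, stayed at 2.54 FPKM or less. Developmental members outside the chromosomes summed to 199, 253 and 138 FPKM at booting, milky and maturity.

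Some runs of neighbouring members had their highest sum in Ds3. In the run of numbers 22502 to 22510, between Sobic.K041900 and Sobic.K043400, the 9 loci summed to 33.1 FPKM in Ds1, 70.7 in Ds2 and 651 in Ds3, against 0.257 in booting. MSTRG.22506 made up most of it, with 18.9 FPKM in Ds1, 52.7 in Ds2 and 586 in Ds3, against 0.126 in booting. MSTRG.22504 in this run had 1.51, 5.38 and 28.8 FPKM in Ds1, Ds2 and Ds3, against 0.0346 in booting. On chromosome 5 the run 13309 to 13312 summed to 143, 120 and 394 FPKM in Ds1, Ds2 and Ds3, against 1.57 in booting.

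A second run on chromosome 5 was listed at 0 in 1 group. The 6 loci numbered 13326 to 13331, between Sobic.005G117200 and Sobic.005G117300, were all at 0 in Ds3. MSTRG.13327 had 602 FPKM in Ds1, 829 in Ds2 and 0 in Ds3, against 8.33 in booting. MSTRG.13326 had 172 FPKM in Ds1, 516 in Ds2 and 0 in Ds3, against 5.15 in booting. MSTRG.13328 and MSTRG.13330 had 96.5 and 104 FPKM in Ds1, 98.6 and 92.2 in Ds2 and 0 in Ds3, against 2.04 and 1.87 in booting. The flanking genes were not at 0 in Ds3, where Sobic.005G117200 had 7.44 FPKM and Sobic.005G117300 had 8.23.

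The longest run had a similar break in other groups. It covers numbers 22420 to 22438, between Sobic.K044410 and Sobic.K044411. Its loci from MSTRG.22427 onward were listed at 0 in Ds2 and Ds3, although MSTRG.22434 had 371 FPKM in Ds1 and 1.83 in booting and MSTRG.22436 had 72.6 in Ds1 and 0.715 in booting. The first loci of the run were not: MSTRG.22421 had 12.5 FPKM in Ds1, 9.82 in Ds2 and 38.0 in Ds3, against 0.406 in booting. An exact 0 next to loci that are read can be a failed estimate as well as an absence of reads, and the table does not separate these. No fold change is given against a 0.

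**Figure D5:**
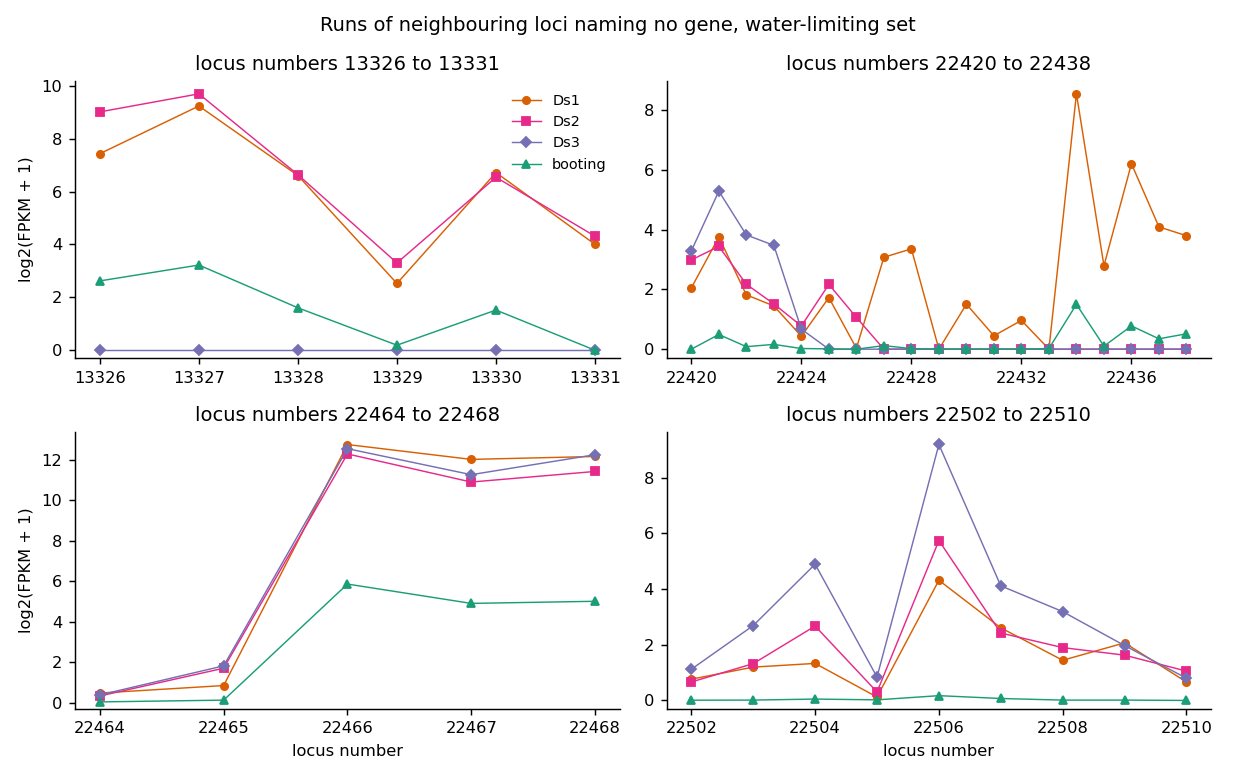
Level on the log2(FPKM + 1) scale along 4 runs of consecutive locus numbers naming no gene in the water-limiting set, 1 line per group. Ds3 lies at 0 along numbers 13326 to 13331, Ds2 and Ds3 lie at 0 in the later portion of 22420 to 22438, and booting is below the 3 Ds groups at the 3 abundant loci of 22464 to 22468.

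Listing at 0 in 1 group and at 10 FPKM or more in another was more frequent among members than among loci naming a gene. It held for 17 of 293 members of the water-limiting set (5.80%) against 58 of 10951 loci naming a gene (0.530%). In the developmental set it held for 5 of 324 members (1.54%) against 16 of 10501 loci (0.152%). Of the 17, 12 were at 0 in Ds3, 4 in Ds2, none in Ds1 and 6 in booting, with some at 0 in more than 1 group. The 4 in Ds2 were MSTRG.22434, MSTRG.22436, MSTRG.22437 and MSTRG.22438, all of 1 run. MSTRG.13326, MSTRG.13327, MSTRG.13328, MSTRG.13330 and MSTRG.13331, at 0 in Ds3, also share 1 run. Neighbours listed at 0 together are not separate cases, so these percentages overstate the number of independent events. How many reads a 0 could hide is unknown.

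Among the Ds groups the members differed most between Ds3 and Ds1. In Ds3 against Ds1 25 of 209 members were called higher and 17 lower, 20.1% against 5.5% of all loci (1.48% higher and 4.02% lower). In Ds3 against Ds2 8 were higher and 8 lower of 193, 8.29% against 0.679% of all loci (0.263% higher and 0.416% lower). In Ds2 against Ds1 2 were higher and 8 lower of 191, 5.24% against 3.29% of all loci (0.835% higher and 2.45% lower). All 8 that were lower in Ds3 than in Ds2 were at 0 in Ds3, as were 11 of the 17 that were lower in Ds3 than in Ds1, and 4 of the 8 lower in Ds2 than in Ds1 were at 0 in Ds2. The 2 higher in Ds2 were MSTRG.8155, with 32.8 FPKM in Ds2 and 1.51 in Ds1, and MSTRG.14200, with 24.7 in Ds2 and 5.07 in Ds1. Rescaled to equal sums, Ds2 against Ds1 had 11 higher and 7 lower of 261 members, 6.90% against 3.11% of all loci, and the median of all loci moved to 0.29 from -0.07.

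Outside the numbered chromosomes 17 of 33 members were higher in Ds3 than in Ds1 and 6 lower, with a median log2 difference of 2.004. All 6 were listed at 0 in Ds3, which can be a failed estimate. Among them MSTRG.22434, MSTRG.22436, MSTRG.22437 and MSTRG.22438 share 1 run, and such neighbours are not separate cases. Of the 33, 16 reached 10 FPKM in Ds3 alone and 6 in Ds1 alone. Among the 11 at 10 FPKM in both, 4 were higher and none lower, and the 17 with at least 10 FPKM in Ds1 had 4 higher and 6 lower. Loci naming a gene there had none higher and 2 lower of 21, of which 3 entered through Ds3 alone. Members between genes of 1 chromosome had 7 higher and 11 lower of 175, or 12 and 9 of 244 with the columns rescaled to equal sums. Of all loci, 5.50% were called as deposited and 5.65% after that rescaling. MSTRG.22390 had 54.9 FPKM in Ds3, 11.8 in Ds2 and 3.08 in Ds1. MSTRG.22449 had 37.9 FPKM in Ds3, 5.11 in Ds2 and 3.80 in Ds1, and MSTRG.22443 had 35.1 in Ds3, 6.06 in Ds2 and 7.95 in Ds1. Loci high in Ds1 included MSTRG.7059 on chromosome 3, with 16.3 FPKM in Ds3 and 24.5 in Ds2, against 198 in Ds1, where booting had 20.02.

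During development fewer members passed the rule, and those that did set the milky stage apart. In milky against booting 12 of 308 members with 10 FPKM in either group were higher and 13 lower, 8.12% against 2.14% of all loci (0.872% higher and 1.27% lower). Counted together with those past the rule, the members were shifted towards lower values in milky. Of the 308, 235 were lower than in booting (76.3%), against 48.4% of all loci. Their median log2 difference was -0.53, against 0.02 for all loci. Of the 308, 101 reached 10 FPKM in booting alone and 26 in milky alone, and such loci are higher in the group they entered through. Of the 324 members at 10 FPKM in any group, milky was the lowest of the 3 stages for 219 (67.6%), against 40.7% of loci naming a gene. Of the 181 members at 10 FPKM in both stages, 4 passed the rule (2.21%), against 0.397% of all loci at that level in both.

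In maturity against booting none of 303 members passed the rule, against 0.924% of all loci (0.0389% higher and 0.885% lower), and the highest log2 difference was 1.21, for MSTRG.5788. The lowest was -1.97, just inside the limit, for MSTRG.18951, which was chosen here after its values were seen and had 25.5 FPKM in booting, 79.9 in milky and 5.75 in maturity. With a pseudocount of 0.1, 2 members were lower (0.660%, against 1.08% of all loci called). With the columns rescaled to equal sums, 2 members were lower as well (0.456% against 1.09%). The median log2 difference was -0.07, against 0.06 for all loci. In maturity against milky 10 of 303 were higher and 10 lower, 6.60% against 2.28% of all loci (0.82% higher and 1.46% lower), with a median log2 difference of 0.43, against 0.04 for all loci. The milky and maturity comparisons share columns, and a locus apart in milky enters both.

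The most abundant developmental member, MSTRG.15688 on chromosome 6, had 1451 FPKM in booting, 1.15 in milky and 999 in maturity. Its neighbour MSTRG.15687, which names Sobic.006G135575 and Sobic.006G135600, had 2816, 2745 and 3635 FPKM at the 3 stages. The dip at milky was thus seen in the member and not in its neighbour. MSTRG.22982 on chromosome 10 had 249 FPKM in booting, 0 in milky and 341 in maturity. Here the neighbour MSTRG.22981, which names 4 genes from Sobic.010G182100 to Sobic.010G182600, read 2029.7, 0 and 2373 FPKM, so both were listed at 0 in milky. MSTRG.2763 on chromosome 1 had 37.3 FPKM in booting, 0 in milky and 36.8 in maturity, while its neighbour Sobic.001G376600 had 229, 335 and 241. MSTRG.1673, MSTRG.20473 and MSTRG.16729 had 12.6 to 19.4 FPKM in booting, 0.0123 to 0.0212 in milky and 11.05 to 17.8 in maturity.

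Other members were highest at milky. MSTRG.8399 on chromosome 3 had 0 FPKM in booting, 57.2 in milky and 0.101 in maturity. Its flanks Sobic.003G165800 and Sobic.003G166200 stayed at 16.1 to 17.3 FPKM and at 62.5 to 68.4 FPKM. MSTRG.5140 had 33.7 FPKM in milky and MSTRG.10268 had 23.9, and both were listed at 0 in booting and maturity. MSTRG.15057 on chromosome 6 had 0.184 FPKM in booting, 28.3 in milky and 0.00992 in maturity. MSTRG.23720, outside the numbered chromosomes, had 2.72, 67.0 and 8.86 FPKM at the 3 stages, and MSTRG.13712 on chromosome 5 had 7.26, 51.8 and 2.27.

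The remaining abundant developmental members stayed within the size rule, though some differed between stages by a log2 of more than 1. MSTRG.5788 on chromosome 2 had 299 FPKM in booting, 960.1 in milky and 690.1 in maturity. Its log2 difference from booting was 1.68 in milky and 1.21 in maturity. MSTRG.3334 and its neighbour MSTRG.3333, both between Sobic.001G445900 and Sobic.001G446000, had 339 and 204 FPKM in booting, 119 and 98.0 in milky and 226 and 200.1 in maturity. Both were lowest in milky, with log2 differences from booting of -1.50 and -1.05. MSTRG.21945, MSTRG.15684, MSTRG.13457 and MSTRG.8200 had 155 to 232 FPKM in booting, and none differed by a log2 of 1 between any pair of stages. MSTRG.15684 was the steadiest of them, with 232 FPKM in booting, 222 in milky and 196 in maturity.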

How the data were processed

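RNA of middle internodes was sequenced in 12 libraries, 2 per group, made with a stranded total RNA kit per the labels' protocols. Per the submitters' processing notes the tools included Cuffdiff, Bowtie2 2.2.9, HISAT2 2.0.5 and cutadapt 1.8.1, whose roles and settings are not stated. The genome build and the strand setting of the counting are not given in the sources used here. The authors deposited FPKM values, 1 per group, in 2 sets with separate locus numbers and scaling, per the file headers. Each set has its own booting column, and both columns carry the code of the same 2 booting libraries. The second booting column, entered in the bookkeeping of columns as an other unit because its header repeats the first, is likewise the authors' deposited FPKM.

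Ratios were taken within a set on FPKM + 1 with Python 3.11.15 and pandas 2.3.3, tested on simulated data. Members were named by 2 rules, the 5 largest ratios in each direction of each comparison and the 10 highest means of each set. The 5 runs described are those of the water-limiting set with the highest sum in any group, a choice made after their values were seen. The RefSeq gene table (NCBIv3) matched 0 of 34129 gene IDs. In the developmental set 1262 loci name several genes. 1 unnamed locus of the water-limiting set carries an annotation ID rather than an assembly number and is not a member. The members, lists and rules were chosen with earlier results of these data known. With 1 value per group the planned limma test could not be run, and no interval or floor can be given. No sequence is printed because no file holds one for these loci. Alternatives were pseudocounts of 0.1 and 5, other minimums, 2 scalings, and leaving out loci listed at 0, loci outside the chromosomes or the most abundant loci.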

Additional observations from a re-analysis of the deposited data

How the results depend on the processing

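No paired analysis was possible because the table holds 1 value per group, and for that reason no replicate could be left out. Counts of members past the rule stayed within 1.5 times in all 9 comparisons with scaling by the median of ratios. With a pseudocount of 5, milky against booting had 12 (3.90% of members, against 0.995% of all loci) and maturity against milky 11 (3.63% against 0.982%). Ds1 against booting had 66 (25.5% against 8.24%) and Ds3 against Ds2 had 9 (4.66% against 0.252%). With a pseudocount of 0.1 the count was 2 for maturity against booting (0.660%, against 1.08% of all loci). Without the 10 FPKM minimum, milky against booting had 44 (2.48% of members, against 0.963% of all loci). Maturity against booting then had 1 (0.0564% against 0.389%) and maturity against milky 39 (2.2% against 1.02%). The counts for Ds1, Ds2 and Ds3 against booting were 171, 168 and 165. As shares they were 12.9%, 12.7% and 12.4% of members, against 5.95%, 6.69% and 6.18% of all loci. Ds2 against Ds1 had 19 (1.43% against 1.25%), a share close to that of all loci. Rescaled to equal sums, maturity against booting had 2 (0.456%, against 1.09% of all loci). Ds1, Ds2 and Ds3 against booting had 223, 186 and 167. These are 55.5%, 43.7% and 38.6% of members, against 23.4%, 20.3% and 18.0% of all loci. Ds2 against Ds1 had 18 (6.90% against 3.11%), and 464 members reached 10 FPKM in the water-limiting set. Alternatives chosen after seeing the data were leaving out members at 0 and keeping members between genes of 1 chromosome. Without those at 0, Ds2 against Ds1 had 6 (3.21%) and Ds3 against Ds2 had 8, all higher (4.32%). Between genes of 1 chromosome, Ds2 against Ds1 had 6 (3.57%), Ds3 against Ds2 6 (3.70%) and Ds3 against Ds1 18 (10.3%). All loci, with none left out, had 3.29%, 0.679% and 5.50% in Ds2 against Ds1, Ds3 against Ds2 and Ds3 against Ds1.

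Medians of log2 differences kept their sign in 34 of 36 recomputed values. The exceptions were Ds3 against Ds2, -0.04 as deposited, which was 0.011 with a minimum of 1 FPKM and 0.039 with columns rescaled to equal sums. The others under that minimum were -0.42, -0.11 and 0.29 for milky against booting, maturity against booting and maturity against milky, -0.34, -0.049 and -0.088 for Ds1, Ds2 and Ds3 against booting, and 0.19 and 0.23 for Ds2 and Ds3 against Ds1. With a pseudocount of 5 the medians were, in the same order, -0.43, -0.066, 0.35, -0.42, -0.31, -0.23, 0.065 and 0.088, and -0.035 for Ds3 against Ds2. With scaling by the median of ratios they were -0.49, -0.020, 0.42, -0.37, -0.33, -0.28, 0.064 and 0.067, and -0.077 for Ds3 against Ds2. Rescaled to equal sums over the same loci, an alternative chosen after seeing the data, they were -0.61, -0.14, 0.45, -1.36, -0.91, -0.74, 0.44 and 0.54.

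Without the single most abundant member the members' share of FPKM was 2.29% in booting, 1.71% in milky and 1.99% in maturity, and 6.27%, 4.86% and 5.19% in Ds1, Ds2 and Ds3, against 1.74% in booting. Without the 6 most abundant, a choice made after seeing the data, it was 1.90%, 1.35% and 1.65%, and 2.18%, 2.09% and 2.12%, against 1.71%. The cause of these changes was not tested beyond what each alternative leaves out. Depth is unknown, so how many reads stand behind a low value cannot be given.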
